A study of Mus musculus with 2 samples.

Results

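The mitochondrial ribosomal proteins were taken as the protein-coding genes whose symbol is Mrpl or Mrps followed by a number, which gave 78 of the 45706 gene IDs in the count files and of the 21519 protein-coding genes among them. Of these, 49 carry the symbol of the large subunit (Mrpl) and 29 that of the small subunit (Mrps), and they lie on 17 chromosomes. This rule uses names alone and no measured value. The RNA came from intestinal stem cells with high GFP, sorted from 4 month old mice of the strain Lgr5-EGFP-IRES-creERT2, whose Lgr5 locus drives the fluorescent protein together with an inducible Cre. The fed group had free access to standard chow and the fasted group was under fasting, with 1 library each. Both groups carry the reporter allele, and the labels name no further agent or allele. The sources used here give neither how long the mice fasted nor how many contributed to a library. The comparison asks how the 2 libraries differ for these genes, and whether the large and the small subunit differ alike.

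Mitochondria hold a ribosome of their own, which makes the few proteins encoded by mitochondrial DNA, all of them core subunits of the respiratory chain and the ATP synthase. Its RNAs come from mitochondrial DNA, whereas all of its proteins are encoded in the nucleus, made in the cytosol and imported. The small subunit binds the mRNA and decodes it, and the large subunit forms the peptide bonds and holds the exit tunnel near the inner membrane. Some of the proteins have a counterpart in bacteria and others are found in the mitochondrial ribosome only. Crypt stem cells of the intestine divide often and are known to rely on active mitochondria.

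Promoters of mitochondrial ribosomal protein genes were searched for 4 short motifs on both strands: GCGCATGC, the core bound by the factor NRF1; CCGGAAG, the core bound by ETS factors such as GABP; AAGATGGC, the core bound by YY1; and CACGTG, the E-box bound by MYC and related factors. A RefSeq window of 250 bases before to 50 bases after the start (GRCm38.p6) was matched for 69 of the 78 genes, by gene ID or else by symbol. Where a gene had several windows, the one nearest its annotated start was taken. The ETS core stood in 24 of the 69 windows (34.8%), against 19.8% of the windows of 9005 measured protein-coding genes and 8.86% of all 32851 windows. For the YY1 core the shares were 17.4%, 5.08% and 2.75%, with 12 of the 69 windows. For the NRF1 core they were 11.6%, 5.81% and 2.71%, with 8 windows, and for the E-box 7.25%, 10.5% and 7.15%, with 5 windows. At least 1 of the motifs was found in 38 windows and 31 had none. A match is a description of letters, not of a bound site. The stretches below lie before the start and outside annotated exons, and capitals mark a motif. They belong to genes at the high and the low end of the fasted to fed ratios given further on, so that a reader can set letters beside values. Mrpl22 and Mrpl17 were taken because their full windows hold 2 of the motifs each. Mrpl22 (chr11:58171414-58171660, plus strand) and Mrpl58 (chr11:115403502-115403751, plus strand) were at the low end of the large subunit, Mrpl17 (chr7:105811100-105811337, minus strand) and Mrpl32 (chr13:14613166-14613239, minus strand) at its high end.
Mrpl22: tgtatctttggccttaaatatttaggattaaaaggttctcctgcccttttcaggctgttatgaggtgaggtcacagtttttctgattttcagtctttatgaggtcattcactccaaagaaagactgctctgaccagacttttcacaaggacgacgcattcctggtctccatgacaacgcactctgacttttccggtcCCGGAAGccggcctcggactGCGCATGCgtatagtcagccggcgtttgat
Mrpl58: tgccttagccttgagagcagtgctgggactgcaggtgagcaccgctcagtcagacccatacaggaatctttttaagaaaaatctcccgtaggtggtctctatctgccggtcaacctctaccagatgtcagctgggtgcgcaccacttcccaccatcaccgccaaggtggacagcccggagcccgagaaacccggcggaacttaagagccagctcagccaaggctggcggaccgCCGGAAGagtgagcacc
Mrpl17: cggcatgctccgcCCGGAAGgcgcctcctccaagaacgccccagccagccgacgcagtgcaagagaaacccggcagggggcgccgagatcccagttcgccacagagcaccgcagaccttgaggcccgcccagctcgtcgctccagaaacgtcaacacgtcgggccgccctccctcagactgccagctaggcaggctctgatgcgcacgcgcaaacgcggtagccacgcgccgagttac
Mrpl32: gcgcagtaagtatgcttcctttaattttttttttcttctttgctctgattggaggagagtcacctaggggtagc
The ETS core is written out in Mrpl22, Mrpl58 and Mrpl17, and Mrpl22 also has the NRF1 core. As Mrpl22 and Mrpl17 were picked for their motifs, these stretches do not show how the core is spread over the ratios. Mrpl30 (chr1:37890412-37890476, plus strand) was at the high end of the large subunit as well, Mrps33 (chr6:39810989-39811186, minus strand) at the high end of the small subunit, and Mrps21 (chr3:95871686-95871764, minus strand) and Mrps36 (chr13:100744660-100744909, minus strand) at its low end.
Mrpl30: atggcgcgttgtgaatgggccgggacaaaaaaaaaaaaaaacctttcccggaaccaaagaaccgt
Mrps33: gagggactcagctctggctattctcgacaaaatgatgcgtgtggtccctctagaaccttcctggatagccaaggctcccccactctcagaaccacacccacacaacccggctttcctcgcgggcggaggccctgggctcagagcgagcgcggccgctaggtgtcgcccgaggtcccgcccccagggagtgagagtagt
Mrps21: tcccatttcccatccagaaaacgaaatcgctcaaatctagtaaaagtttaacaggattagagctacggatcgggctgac
Mrps36: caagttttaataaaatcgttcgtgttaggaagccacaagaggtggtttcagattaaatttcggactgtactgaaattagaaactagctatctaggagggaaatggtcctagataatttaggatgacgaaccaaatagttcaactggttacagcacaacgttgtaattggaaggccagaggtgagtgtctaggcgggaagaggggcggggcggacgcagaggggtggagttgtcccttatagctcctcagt
None of the 4 motifs is in these 4 stretches or in that of Mrpl32, while the full windows of Mrps33 and Mrps21 hold an ETS core and that of Mrpl32 an NRF1 core and a YY1 core, at positions not printed here. The full window of Mrpl17 likewise holds an NRF1 core. Over the measured genes with a window, the median log2 ratio of fasted to fed was 0.04 in the 23 with the ETS core and 0.14 in the 45 without. It was 0.06 in the 12 with and 0.13 in the 56 without the YY1 core, 0.13 in the 8 with and 0.11 in the 60 without the NRF1 core, and 0.21 in the 5 with and 0.11 in the 63 without the E-box. The difference between genes with and without a motif was not tested.

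The fed library held 6985316 reads counted in genes and the fasted library 5020056. Counts were scaled by size factors of 1.19 (fed) and 0.842 (fasted), so that a gene of equal scaled level has fewer reads in the fasted library. All ratios are fasted over fed on scaled counts, and brackets give 95% intervals that cover counting error only. With 1 library per group there is no replicate error and no test, and a difference describes the pair of libraries and not fasting as such. Of the labelled cell type, all 14 stem cell markers were measured in both libraries, Lgr5 with 3381 and 1709 reads. Their summed level went from 23110 to 15430 counts per 1000000 counts (CPM), 12 of 14 had an interval below a ratio of 1, and none was past 2-fold. Most of this sum is Olfm4, which went from 14370 to 8257 CPM. The median log2 ratio of the 14 was -0.30, against -0.56 for the sum. Absorptive enterocyte markers went from 1343 to 3148 CPM, with 10 of 12 at least 2-fold up, and goblet cell markers from 629 to 1235 CPM, with 3 of 7. Of all 12026 measured genes, 2.51% were at least 2-fold higher and 1.91% lower, each with an interval that excluded 1. Their intervals lay above 1 for 16.7% and below for 19.2%. Paneth cell markers went from 997 to 909 CPM. Of these 8, 1 (Mmp7) was at least 2-fold up, 6 had a negative log2 ratio and 3 an interval below 1, with a median log2 ratio of -0.18. Of 7 enteroendocrine markers 5 were measured, with a median log2 ratio of 0.16 and 1 interval below 1, that of Chga. Of 6 tuft cell markers 2 were measured, with a median of -0.69 and intervals that included 1. Of 6 immune markers 2 were measured, Cd68 among them with 25 and 6 reads. None of 6 markers of stroma and endothelium was measured, and Col3a1 and Pdgfra were at 0 in both. The part of these shifts in the values below was not tested, and fewer cells of a type cannot be told apart from less RNA per cell.

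Transcripts of the mitochondrial ribosome were kept at nearly the same scaled level in the fasted as in the fed library. The 78 genes took 29792 reads (0.427%) of the fed and 23097 (0.460%) of the fasted library, a summed log2 ratio of 0.13 (0.11 to 0.16), that is 1.095-fold. Of the 78, 77 were measured, which means a mean of at least 1 CPM and at least 20 reads in sum. None of the 77 was at least 2-fold higher and none at least 2-fold lower. Of all 12026 measured genes 2.51% and 1.91% were, counting only those whose interval also excluded 1. The interval lay above a ratio of 1 for 17 genes (22.1%, against 16.7% of all measured genes) and below it for 1 gene, Mrps21 (1.30%, against 19.2%). For the other 59 it included 1.

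The single ratios were spread narrowly around a median just above 0. The log2 ratio was positive for 56 of 77 genes (72.7%, against 47.9% of all measured genes), with a median of 0.12 against -0.02 for all measured genes. The middle 50% of the genes lay between -0.002 and 0.23, and the range ran from -0.47 to 0.74. At a looser threshold of 1.5-fold, again with an interval that excluded 1, 2 genes were up, Mrps33 and Mrps28, and none down. Of all measured genes 5.11% and 5.05% were. Past a log2 ratio of 0.32 in either direction, with the same condition, 8 were up and 1 down. The shares of all measured genes were 10.5% and 11.7%. Mrps36 (-0.38) was also past this ratio, but its interval included 1. The median interval of a gene was 0.46 wide from bound to bound on the log2 scale. The interval excluded the summed ratio of the 78 genes in 12 of 77 cases, 7 above and 5 below it.

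**Figure D1:**
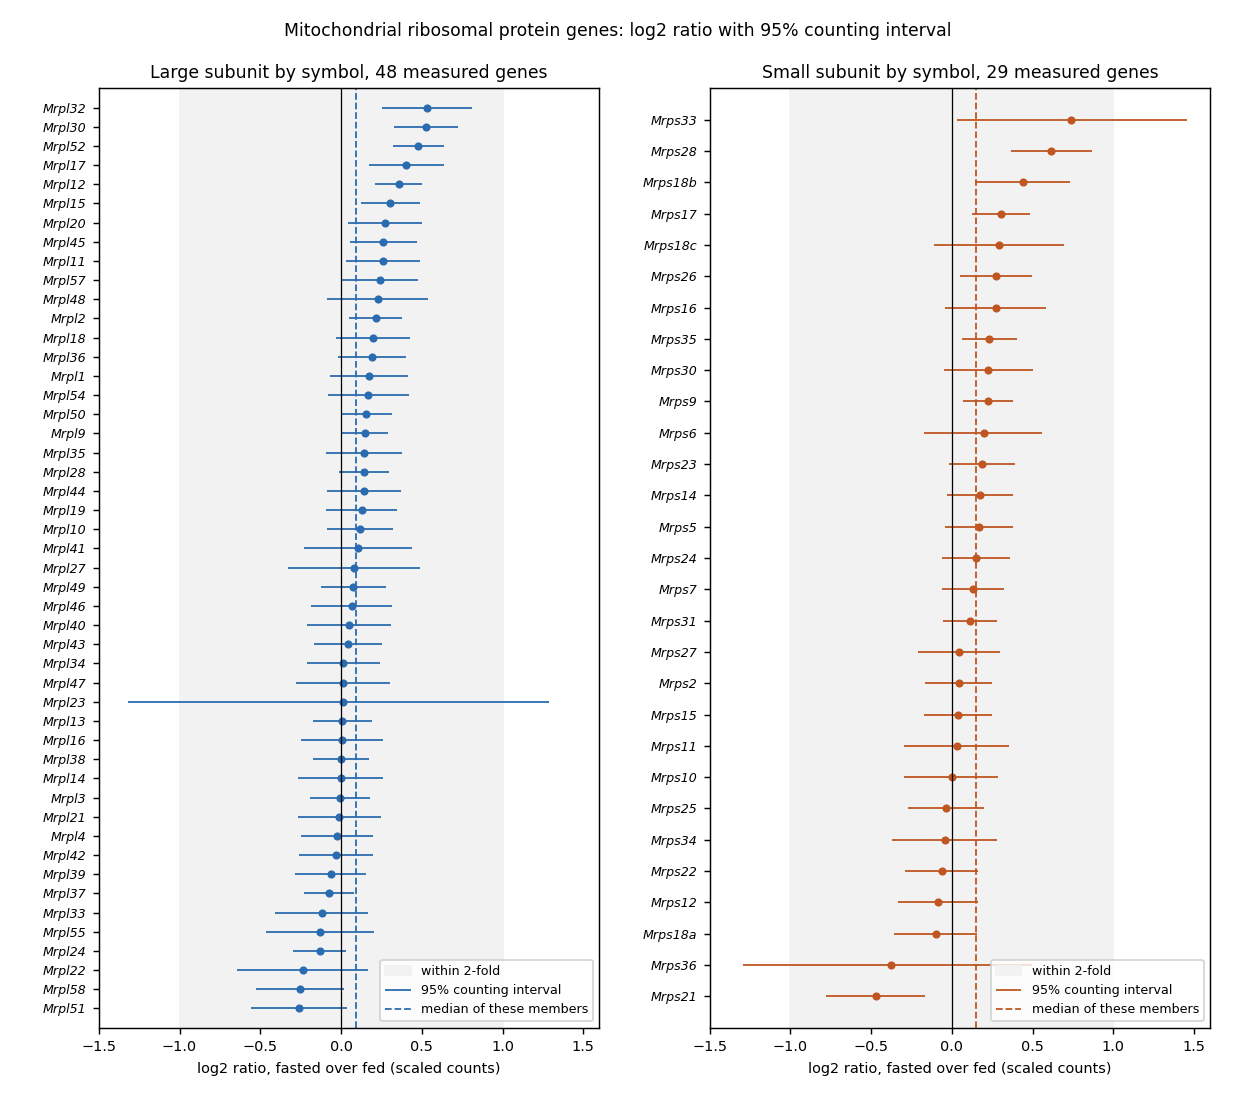
Log2 ratio of fasted to fed (x axis, scaled counts) for each measured gene (rows), with 95% counting intervals as lines, the range within 2-fold shaded and the median of each panel dashed. All 77 points lie within the shaded range, from -0.47 (Mrps21) to 0.74 (Mrps33), and the medians of the large subunit (0.09) and the small subunit (0.15) both lie just above 0.

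Large and small subunit genes had nearly the same summed ratio. The 49 large subunit genes had 19832 fed and 15330 fasted reads, a summed log2 ratio of 0.13 (0.10 to 0.16). The 29 small subunit genes had 9960 and 7767 reads, a summed log2 ratio of 0.14 (0.10 to 0.18). Each small subunit read thus stood beside 1.99 large subunit reads (fed) or 1.97 (fasted). The log2 of the change in this ratio was -0.01 (-0.07 to 0.04), an interval that includes no change, and the scaling of the libraries does not enter it. The median log2 ratio was 0.09 over the 48 measured large subunit genes and 0.15 over the 29 small subunit genes, a difference of -0.05. The SDs of the single genes were 0.18 and 0.25. Of the large subunit genes 35 of 48 (72.9%) had a positive ratio, 10 had an interval above 1 (20.8%) and none below. Of the small subunit genes 21 of 29 (72.4%) were positive, 7 had an interval above 1 (24.1%) and 1 below (3.45%). Of all measured genes 47.9% were positive, 16.7% had an interval above 1 and 19.2% below.

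3 genes carry a small subunit symbol although their products belong elsewhere. The proteins of Mrps30 and Mrps18a sit in the large subunit, and that of Mrps36 is now known as a subunit of the oxoglutarate dehydrogenase complex of the citric acid cycle. With Mrps30 and Mrps18a moved and Mrps36 left out, the ratio of large to small subunit reads was 2.18 (fed) and 2.15 (fasted), a log2 change of -0.02 (-0.07 to 0.03). In this assignment the 30 large subunit genes with a bacterial counterpart had a median log2 ratio of 0.12, with 8 intervals above 1. The 20 measured large subunit genes without one had 0.07, with 2 above. For the small subunit the medians were 0.16 over 16 genes with a bacterial counterpart, with 3 above and 1 below, and 0.15 over 10 genes without, with 4 above. Over all measured genes 16.7% of intervals lay above 1 and 19.2% below. Summed over the genes, the log2 ratios of the 4 classes were 0.15, 0.09, 0.15 and 0.14.

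Levels per length were almost in the same order in both libraries. Expressed as CPM per kilobase of exon (RPKM), large subunit genes had a median level of 23.2 (fed) and 24.6 (fasted), and small subunit genes of 13.7 and 15.1. The Spearman correlation between the libraries over the 77 levels was 0.98, given as a description, since both levels of a gene share its length and sequence. The highest levels of the large subunit in the fed library were those of Mrpl34 (92.7 RPKM fed, 92.2 fasted), Mrpl52 (87.0 and 119) and Mrpl2 (83.5 and 95.3), whose product lies near the peptidyl transferase centre. In the fasted library Mrpl52 was first. The lowest were Mrpl23, an exit tunnel protein, with 0.41 RPKM in both libraries, Mrpl48 (3.39 and 3.91) and Mrpl33 (5.06 and 4.60). In the small subunit the highest in the fed library were Mrps21 (51.1 and 36.4), Mrps28 (47.2 and 71.2) and Mrps12 (46.0 and 42.7), whose product takes part in decoding. In the fasted library Mrps28 was first and Mrps21 was below Mrps12. The lowest were Mrps33 (2.83 and 4.66), Mrps36 (3.71 and 2.81) and Mrps10 (4.24 and 4.17). Exon length here is the merged length over all annotated transcripts, so a gene with long rare isoforms has an understated level. Per median length of coding transcripts, Mrpl33 had 77.6 RPKM in the fed library instead of 5.06, Mrps10 had 32.2 instead of 4.24, and Mrpl52 was first with 219.

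**Figure D2:**
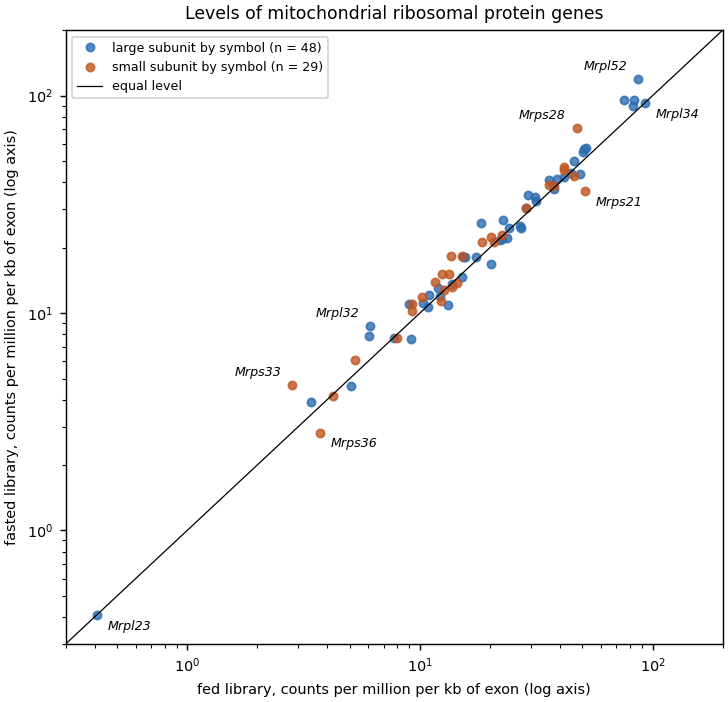
Level of each measured gene in the fed (x axis) and fasted (y axis) library, in CPM per kilobase of exon on log axes, blue for the large and orange for the small subunit by symbol, with the line of equal level. Points follow the line from Mrpl23 (0.41 RPKM) to Mrpl34 and Mrpl52, with Mrps28 and Mrps33 above it and Mrps21 and Mrps36 below.

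2 genes could hardly be measured. Mrpl53 (chromosome 6, 83109040 to 83109939, GRCm38) had 1 fed read and 0 fasted reads. Its exons overlap those of Gm42688, another protein-coding model, by 695 of 790 bases, and Gm42688 had 86 and 58 reads. The sources used here do not state how reads in such overlaps were counted, and these values say nothing of whether Mrpl53 is expressed. Mrpl23 had 14 and 10 reads, a log2 ratio of 0.01 with the wide interval of -1.32 to 1.29. A processed pseudogene, Mrpl23-ps1, had 4 reads in each library, and the division of reads between close copies is uncertain.

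Among large subunit genes, the highest ratios were those of Mrpl32, Mrpl30, Mrpl52, Mrpl17, Mrpl12 and Mrpl15, all with intervals above 1. Mrpl32 (chromosome 13, 14608184 to 14613165), whose protein is trimmed by the m-AAA protease of the inner membrane before it joins the ribosome, had 213 fed and 218 fasted reads, or 179 and 259 scaled counts. Its log2 ratio was 0.53 (0.25 to 0.81). Mrpl30 (chromosome 1, 37890477 to 37898535) had 412 and 420 reads, or 347 and 499 scaled counts, with a log2 ratio of 0.53 (0.33 to 0.73). Both genes have a counterpart in bacteria. Mrpl52, which is specific to mitochondria, had 674 and 665 reads (567 and 790 scaled counts), a log2 ratio of 0.48 (0.32 to 0.64). Mrpl17 had 321 and 301 reads (270 and 358 scaled counts), a log2 ratio of 0.41 (0.17 to 0.64). Mrpl12, whose protein forms the stalk that recruits translation factors, had 808 and 733 reads (680 and 871 scaled counts). Its log2 ratio was 0.36 (0.21 to 0.50), and that of Mrpl15 was 0.30 (0.12 to 0.49). The first 5 also had intervals above the summed ratio of all 78 genes. The remaining 4 large subunit genes with an interval above 1 were Mrpl2, Mrpl11, Mrpl20 and Mrpl45, with log2 ratios of 0.21 to 0.27. The product of Mrpl45 helps to anchor the ribosome at the inner membrane. These 4 were named after their values were seen.

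No large subunit gene had an interval below 1. The lowest were Mrpl51 with 260 and 154 reads (219 and 183 scaled counts), a log2 ratio of -0.26 (-0.55 to 0.04), and Mrpl58 with 308 and 183 reads (259 and 218 scaled counts), a log2 ratio of -0.25 (-0.53 to 0.02). Mrpl58 encodes a peptidyl-tRNA hydrolase that rescues stalled ribosomes and has become a fixed part of the large subunit. Mrpl22 had 138 and 83 reads and a log2 ratio of -0.24 (-0.65 to 0.17). Mrpl24, Mrpl55 and Mrpl33 followed with -0.13, -0.13 and -0.12. The intervals of Mrpl51, Mrpl58 and Mrpl24, and that of Mrpl37 (-0.08), lay below the summed ratio of the 78 genes although they included a ratio of 1. Mrpl24 shares 594 bases of exon with Rrnad1, which had a log2 ratio of -0.44 (-0.75 to -0.14). How reads in this overlap were counted is not stated. Mrpl57, a short protein found only in mitochondria, had 322 and 269 reads and a log2 ratio of 0.24 (-0.001 to 0.48).

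In the small subunit Mrps33 and Mrps28 had the highest ratios. Mrps33 had only 33 and 39 reads (27.8 and 46.3 scaled counts), a log2 ratio of 0.74 (0.03 to 1.45), the highest of all 77 genes and one of the least precise. Mrps28 (chromosome 3, 8802146 to 8923918), the counterpart of a part of bacterial protein S1, had 258 and 280 reads (217 and 333 scaled counts). Its log2 ratio was 0.62 (0.37 to 0.87), and the lower bound lies above the ratio of most genes of the ribosome. Mrps17 had 564 and 493 reads and a log2 ratio of 0.30 (0.13 to 0.48), and Mrps26 355 and 304 reads and 0.27 (0.05 to 0.50). Mrps9 and Mrps35, named after their values were seen, had intervals above 1 with log2 ratios of 0.22 and 0.23.

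The 3 genes related to the bacterial protein S18 did not have the same ratio. In the classes above only Mrps18c was counted as having a bacterial counterpart. Mrps18a and Mrps18b were counted among the genes without one, although they too are related to S18. Mrps18b had 199 and 191 reads (168 and 227 scaled counts), a log2 ratio of 0.44 (0.14 to 0.73). Mrps18c, the closest in position to the bacterial protein, had 114 and 99 reads (95.9 and 118 scaled counts), a log2 ratio of 0.29 (-0.11 to 0.70). Mrps18a, whose product is in the large subunit, had 319 and 211 reads (268 and 251 scaled counts), a log2 ratio of -0.10 (-0.36 to 0.16). The intervals of Mrps18a and Mrps18b overlap only between 0.14 and 0.16, and that of Mrps18c overlaps both. The antisense gene Gm16279 covers 638 bases of the exons of Mrps18b and had 24 and 13 reads, fewer than Mrps18b itself in either library. Mrps30, the other gene with a product in the large subunit, had 245 and 203 reads and a log2 ratio of 0.23 (-0.05 to 0.50).

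Mrps21 was the one gene with an interval below 1. The gene (chromosome 3, 95862634 to 95871519, minus strand), whose product is the counterpart of bacterial S21, had 264 fed and 135 fasted reads, or 222 and 160 scaled counts. Its log2 ratio was -0.47 (-0.78 to -0.17), that is 0.722-fold, at percentile 10.8 of all measured genes. It has no exon overlap with another annotated gene. Mrps36 had 33 and 18 reads and a log2 ratio of -0.38 (-1.29 to 0.49), too few reads to tell from no change. Mrps18a (-0.10), Mrps12 (-0.08), Mrps22 (-0.06) and Mrps34 (-0.04) were the next lowest, each with an interval that included 1.

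Other genes of similar length also had ratios just above 0. Over 11217 measured protein-coding genes the log2 ratio fell with exon length (Spearman correlation -0.27, a description across genes of 1 pair of libraries). The mitochondrial ribosomal protein genes are short, with a median exon length of 2533 bases against 4531 bases. The 4521 protein-coding genes between the quartiles of their lengths (1520 to 4295 bases) had a median log2 ratio of 0.05, with 57.6% positive, 21.9% of intervals above 1 and 12.5% below. After each ratio was reduced by the running median of protein-coding genes of its length, 40 of the 77 genes were positive, the median was 0.02, and 15 intervals lay above 1 and 5 below. The 5 were Mrps21, Mrps12, Mrpl22, Mrpl24 and Mrpl58. In 10 bins of length, 41 of the 77 genes lay above the median of their bin, and in 5 of the 7 bins with at least 3 of these genes their median was above that of the bin. In the bin of the shortest genes their median was below that of the bin, with 0.14 over 29 genes against 0.18. The next bin also had theirs below, with 0.03 over 11 genes against 0.09. In the correction the medians of the large and the small subunit were -0.02 and 0.03. Among the 77 genes themselves the Spearman correlation of ratio and exon length was 0.05. Mrps28, Mrpl30 and Mrpl32 had corrected log2 ratios of 0.42, 0.49 and 0.56, and Mrps21 had -0.66. The cause of the relation with length was not tested.

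**Figure D3:**
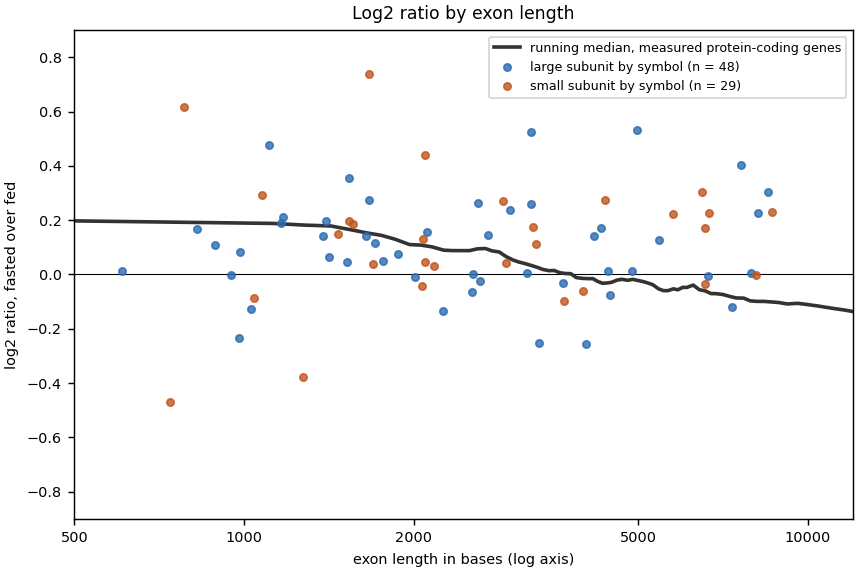
Log2 ratio of fasted to fed (y axis) against merged exon length in bases (x axis, log scale), for the 77 measured genes and as a running median of measured protein-coding genes (black line, windows of 1001 genes). The line falls from above 0 in short genes to below 0 in long ones, and the points scatter on both sides of it, 40 of them above.

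Genes of the cytosolic ribosome differed more between the libraries. Of 74 measured cytosolic ribosomal protein genes, 70 had a positive log2 ratio, with a median of 0.44. The interval lay above 1 for 52 (70.3%, against 16.7% of all measured genes) and below for none (against 19.2%). None was past 2-fold. The highest were Rps27a (0.81) and Rpl17 (0.79, with a wide interval of 0.069 to 1.525), and Rpl10 (-0.13) was at the low end. For each read of a cytosolic ribosomal protein gene there were 0.204 (fed) and 0.160 (fasted) reads of the mitochondrial set, a log2 change of -0.35 (-0.38 to -0.33). The length correction left a median of 0.32 for the cytosolic set, against 0.02 for the mitochondrial set. Several cytosolic ribosomal protein genes have processed pseudogenes, so counts in this list are uncertain. Of the 76, 2 were not measured, Rpl23a and Rpl24, with at most 10 reads. Some measured genes also had few reads, such as Rps13 with 12 and 9 and Rpl17 with 31 and 38. Rpl4 had 15996 and 15018.

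The proteins that the mitochondrial ribosome makes, and the nuclear subunits they join, had ratios on either side of it. Of 13 protein genes of mitochondrial DNA 7 were measured, with a median log2 ratio of 0.04. The values were -0.05 for mt-Nd2, -0.02 for mt-Nd5, -0.0003 for mt-Nd6, 0.04 for mt-Nd4, 0.06 for mt-Cytb, 0.10 for mt-Co1 and 0.18 for mt-Nd1. mt-Nd3 had 6 reads in each library, and mt-Atp6, mt-Atp8, mt-Co2, mt-Co3 and mt-Nd4l were listed at 0 in both. For the RNAs of the mitochondrial ribosome, mt-Rnr1 and mt-Rnr2, the log2 ratios were 0.06 (-0.04 to 0.16) and 0.10 (0.03 to 0.17). The ratio of mitochondrial ribosomal protein reads to reads of mitochondrial protein genes went from 0.0812 to 0.0848, a log2 change of 0.06 (0.04 to 0.09). Of 78 nuclear genes of the respiratory chain and ATP synthase, all measured, 70 were positive, with a median of 0.21. The interval lay above 1 for 52 (66.7%, against 16.7% of all measured genes) and below for none (against 19.2%). Among the 78 were Cox7a1 (0.58) and Ndufb4 (0.55) at the top and Atp5g2 (-0.64) and Ndufb6 (-0.12) at the bottom. Each of these had an interval that included 1. The reads of the mitochondrial ribosome fell against theirs from 0.236 to 0.225, a log2 change of -0.07 (-0.10 to -0.04). The length correction left this list a median of 0.09.

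**Figure D4:**
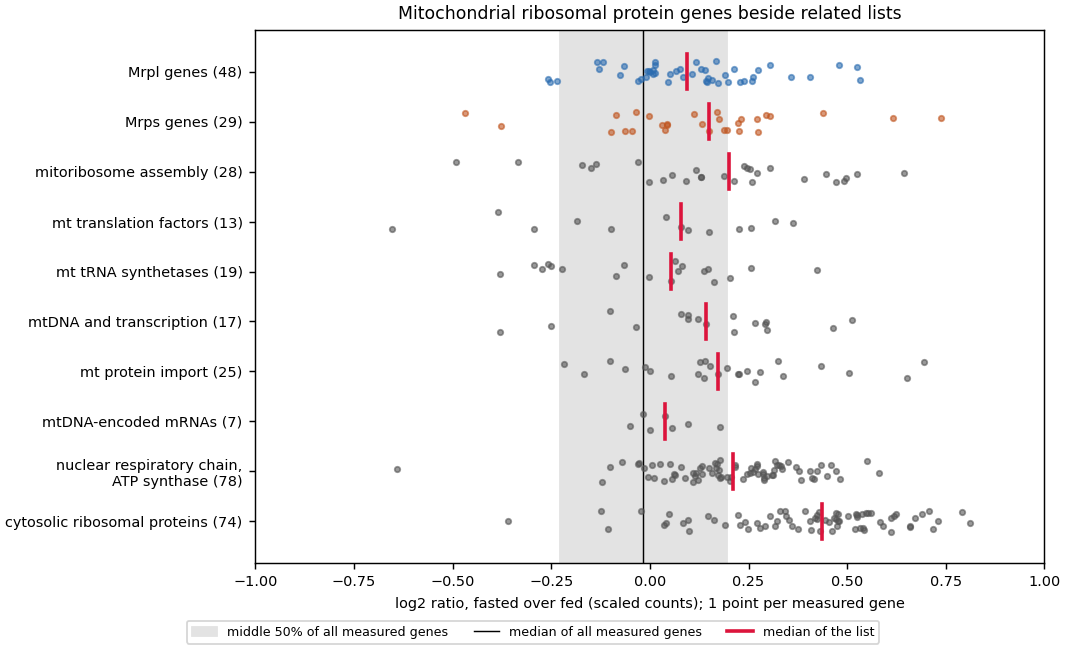
Log2 ratio of fasted to fed (x axis) for each measured gene of 10 lists (rows, number of genes in brackets), with the median of each list in red, the median of all measured genes as a black line and their middle 50% shaded. Medians of the Mrpl genes (0.09) and Mrps genes (0.15) lie inside the shaded band, and that of the cytosolic ribosomal proteins (0.44) lies outside it.

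Among other genes of mitochondrial protein synthesis none passed 2-fold in either direction. Of all measured genes only 2.51% were called 2-fold higher and 1.91% lower, and 16.7% of intervals lay above 1 and 19.2% below. The 5 mitoribosomal proteins without an Mrp symbol were Dap3 (log2 ratio -0.01) and Ptcd3 (-0.001), Chchd1 (0.22), Aurkaip1 (0.34) and Gadd45gip1 (0.34), the last of the large subunit, and 3 of the 5 had intervals above 1. Factors that assemble the ribosome or modify its RNA had a median of 0.20 over 28 genes, with 9 intervals above 1 (32.1%) and 1 below (3.57%). Rpusd3, a pseudouridine synthase family member, had 0.64 and Malsu1, which keeps the large subunit from joining too early, 0.53. Mettl17 had -0.49, with 361 and 182 reads, and Mettl15, an RNA methyltransferase of the small subunit, -0.34. Translation factors had a median of 0.08 over 13 genes, with 2 intervals above and 2 below (15.4% each). The recycling factor Mrrf and the elongation factor Tufm had 0.36 and 0.32, and the initiation factors Mtif3 and Mtif2 had -0.65 (20 and 9 reads) and -0.39 (535 and 290 reads). Only the interval of Mtif2 among these 4 excluded 1. Mitochondrial tRNA synthetases had a median of 0.05 over 19 genes, with 4 above and 4 below. That is 21.1% each, near the 16.7% and 19.2% of all measured genes. They ran from Pars2 (0.42) and Fars2 (0.26) to Aars2 (-0.29) and Wars2 (-0.38).

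Genes of mitochondrial DNA and its transcription had a median of 0.14 over 17 measured genes, with 5 intervals above 1 (29.4%) and 2 below (11.8%). For all measured genes these shares were 16.7% and 19.2%. Slirp, which stabilises mitochondrial mRNAs, had 0.51 and the polymerase accessory subunit Polg2 0.46, whereas the catalytic subunit Polg had -0.38 and the tRNA processing enzyme Elac2 -0.25. Genes of protein import and processing, on which the ribosomal proteins depend to enter the organelle, had a median of 0.17 over 25 of 28 genes. Of their intervals 11 lay above 1 (44%) and 1 below (4%). Timm8a1 (0.70, -0.005 to 1.40, with only 34 and 39 reads) and the import receptor Tomm20 (0.65, 0.47 to 0.83) were highest. The peptidase genes Mipep (-0.22, -0.47 to 0.03) and Pmpca (-0.17, -0.33 to -0.006) were lowest. Known regulators of nuclear mitochondrial genes had a median of 0.02 over 10 genes, with 3 above (30%) and 2 below (20%). The coactivator Ppargc1a had 144 and 141 reads and a log2 ratio of 0.47 (0.12 to 0.81). The nuclear receptor Esrra had 0.25. Nrf1 had 394 and 225 reads and -0.31 (-0.55 to -0.07), and Yy1 had -0.25 (-0.39 to -0.10).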

How the data were processed

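RNA of 2 sorted samples was sequenced, 1 fed and 1 fasted, from Illumina TruSeq libraries, per the labels' protocols. The deposited counts are whole reads per Ensembl gene, not normalised by the authors. A further deposited table holds a signal, normalised gene counts per the file headers, that equals the counts divided by 1 factor per library for 100% of values within 0.0051. FastQC, STAR, HTSeq, DESeq and the builds GRCm38 and mm10 are named per the submitters' processing notes. Which annotation and strand setting the counting used is not given in the sources used here. No column lacked a sample.

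Of 45706 IDs, 45143 were matched to GENCODE M21, which gave symbols, types, positions and exons. Log2 ratios used median-of-ratios size factors with exact Clopper-Pearson intervals of 95% (Python 3.11.15, scipy 1.17.1), and TMM factors came from edgeR 4.0.16. The filter on low counts was a mean of 1 CPM and 20 reads in sum. Calling was tested on simulated data. With 1 library per group no test of difference was made, and the intervals show the precision that depth allows. Subunits by structure and bacterial counterparts were assigned from general knowledge. Promoter windows were those of RefSeq (GRCm38.p6).

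The rule for the set, the lists and the comparisons were chosen with earlier results of these data known. Named genes are the 6 highest and 6 lowest ratios and the 3 highest and 3 lowest levels of each subunit, 8 fixed genes, unmeasured genes and, in each list, 2 at either end. Some genes that this rule takes are left out of the text. Alternatives were other scalings, filters, thresholds, memberships and length corrections.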

Additional observations from a re-analysis of the deposited data

How the results depend on the processing

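No paired analysis was possible because each group had 1 library. For the same reason no library could be left out. TMM and upper-quartile scaling, the values as normalised by the authors, no filter, a minimum of 5 CPM and subunits by structure moved no median or summed ratio of the set by more than its spread. Counts of genes did depend on the scaling. Upper-quartile scaling gave 23 genes with an interval above 1 in place of 17, and 61 positive genes in place of 56. With total counts 50 genes were positive, and 2 had an interval below 1 in place of 1. The exon length correction gave 5 such genes, turned the large subunit median to -0.018 and moved that of the small subunit to 0.031. With lengths of coding transcripts, a correction chosen after seeing the data, the values were 5 genes, 0.0034 and 0.082. Neither correction was run on the summed counts. Without the genes whose exons overlap another gene, 33 of 45 were positive, the large subunit median was 0.14 and its summed log2 ratio 0.17. Calls also required an interval that excluded 1. At 1.5-fold 2 genes were called and past a log2 ratio of 0.32 in either direction 9, in place of 0 at 2-fold. The log2 change of the large to small ratio ran from -0.02 to 0.03 over all alternatives run. Whether any difference exceeds that between mice cannot be told from 1 library a group.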

Other observations

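Many mitochondrial ribosomal protein genes start next to another gene on the opposite strand. A partner whose start lay within 1000 bases before or 500 bases after, pointing away, was annotated for 26 of 78 genes (33.3%), against 15.2% of 11217 measured protein-coding genes. Of 25 measured partner entries 13 had a positive log2 ratio, with a median of 0.02 and a range from -0.83 to 0.59. Among the genes with the largest ratios, Mrpl32 (0.53) starts 75 bases from the proteasome gene Psma2 (0.22), and Mrpl30 (0.53) starts 66 bases from Mitd1 (-0.11). At the low end Mrpl51 (-0.26) starts 100 bases from the condensin gene Ncapd2, which had 2700 and 1362 reads and a log2 ratio of -0.49 (-0.58 to -0.39). Mrpl27 (0.08) shares its start region with Eme1, a subunit of a DNA repair nuclease, which had 188 and 75 reads and -0.83 (-1.23 to -0.43). Mrpl49 (0.08) starts 59 bases from Fau, which encodes a cytosolic ribosomal protein and had 0.59 (0.20 to 0.98). Mrps11 and Mrpl46, one from each subunit, are each other's partner, share 173 bases of exon and had log2 ratios of 0.03 and 0.07. The 26 genes with a partner had a median of 0.11 and the 51 measured genes without one 0.13.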
